A study of Homo sapiens with 4 samples.

Results

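The genes that detect RNA and DNA inside the cell and pass the signal to the interferon genes were examined in MHCC97H cells, a human hepatocellular carcinoma (HCC) line, with and without knockdown of UBXN1. The set was chosen by name and held 10 genes, namely RIGI (formerly DDX58), IFIH1, MAVS, CGAS, STING1, TLR3, TBK1, IKBKE, IRF3 and IRF7. Each was found under a single Ensembl ID, so the set was 10 of the 61541 gene IDs in the deposited table. RNA from 4 libraries was compared, 2 from cells with a control shRNA (shCon, genotype given as control) and 2 from cells with an shRNA against UBXN1 (shUBXN1, genotype given as UBXN1 knockdown), all of a line labelled as liver. The study's methods name the control shRFP, the labels shCon, and neither says which UBXN1 shRNA the sequenced cells carried. The effect of the hairpin and the effect of losing UBXN1 therefore cannot be told apart here. The labels do not say whether the 2 libraries of a group came from separate cultures, so p-values measure only the spread between these libraries.

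RIG-I (encoded by RIGI) and MDA5 (encoded by IFIH1) are helicases that bind viral or mislocalized RNA in the cytosol and signal through MAVS, a protein anchored in the outer mitochondrial membrane. The enzyme cGAS makes the messenger cGAMP when it meets DNA in the cytosol, and cGAMP activates STING on the endoplasmic reticulum, whereas TLR3 reads double-stranded RNA in endosomes. All of these routes lead to the kinases TBK1 and IKKε (IKBKE), which phosphorylate the transcription factors IRF3 and IRF7. UBXN1, an adaptor of the ATPase VCP, is known to bind MAVS and to dampen RIG-I signaling.

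The upstream sequence of the RNA sensors is given first. RIGI and IFIH1 have related roles and moved in opposite directions, and a link of these sequences to that difference was not tested. RefSeq windows from 250 bases before to 50 bases after the start site (GRCh38.p14) were matched for 6 of the 10 genes, namely RIGI, IFIH1, MAVS, TLR3, TBK1 and IKBKE. They were searched on both strands for GAAANNGAAA, a motif to which interferon regulatory factors are known to bind, and for the shorter-spaced GAAANGAAA. The first motif was present in 3.57% of all 35116 RefSeq windows and the second in 3.12%. IFIH1 carried 3 matches to GAAANNGAAA, of which 2 overlapped each other on the strand opposite the gene, and TLR3 carried 1 across its start site. RIGI carried no GAAANNGAAA and 1 GAAANGAAA, and neither motif was present in the windows of MAVS, TBK1 and IKBKE. The stretches that hold the RIGI and IFIH1 matches are printed 5′ to 3′ along each gene (minus strand), with the motif letters in capitals.
RIGI, chr9:32526357-32526416, from 220 to 161 bases before the start: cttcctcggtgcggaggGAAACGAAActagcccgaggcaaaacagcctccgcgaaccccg
IFIH1, chr2:162318800-162318859, from 175 to 116 bases before the start: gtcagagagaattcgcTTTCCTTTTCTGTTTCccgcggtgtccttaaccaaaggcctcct
IFIH1, chr2:162318685-162318744, from 60 to 1 bases before the start: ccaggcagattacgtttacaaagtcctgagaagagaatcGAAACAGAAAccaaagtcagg
These are matches of letters only, and other forms of site for interferon regulatory factors were not searched for. Binding was not measured in these cells.

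The libraries held 23373700 to 27380508 counts, and 5.28% to 5.59% of the shCon counts and 7.43% to 8.27% of the shUBXN1 counts came from mitochondrial genes. Levels are given as CPM, a gene's counts scaled to the same library total, with libraries balanced by the trimmed mean of M values (TMM). The knockdown was checked first: UBXN1 stood at 67.1 and 77.3 CPM with shCon and at 16.8 and 18.5 CPM with shUBXN1. It fell by 2.03 on the log2 scale (SE 0.0963, edgeR adjusted p = 9.98e-10). All 12 hepatocyte lineage markers had enough counts to be tested, 2 were higher and 7 lower in the knockdown libraries, and the list's summed level was 4445 and 4616 CPM in shCon and 3493 and 4088 CPM in shUBXN1. Its most abundant member, KRT8, fell by 0.44 (edgeR adjusted p = 0.00185). Of the 9 leukocyte markers, CD3E and CLEC4C were at 0 counts in every library and 5 were too low to test. The summed level of that list was 92.8 and 97.4 CPM in shCon and 80.3 and 77.8 CPM in shUBXN1, nearly all of it from CD68, which fell by 0.25 (edgeR adjusted p = 0.0106). The sum of the 8 endothelial and stromal markers was 66.6 and 67.3 CPM against 61.2 and 62.5 CPM, with 2 of its 5 tested members higher and 2 lower. PECAM1, the most abundant, rose by 0.35 (edgeR adjusted p = 0.00208), whereas LUM, named after its value was seen, fell by 1.06 (edgeR adjusted p = 1.28e-06). The part of these shifts in the results on the sensing genes was not tested.

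After knockdown, STING1, IFIH1 and IRF7 were higher, RIGI, MAVS and IRF3 were lower, and CGAS, TLR3, TBK1 and IKBKE were not called (edgeR's quasi-likelihood test, Benjamini-Hochberg adjusted p below 0.05 over all 16863 genes tested). The largest change among the called genes was that of STING1, which reached 199.8% of its shCon level. RIGI stood at 67.2% of its shCon level, and MAVS and IRF3 at 82.0% and 81.0%. Of all genes tested, 56.2% were called, 28.0% as higher and 28.2% as lower, so 6 calls among 10 genes were close to the share in the whole transcriptome. Their median log2 fold change, 0.04, was also close to the 0.02 of all genes tested. In these bulk libraries, fewer cells with an RNA and less of it per cell cannot be told apart.

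**Figure D1:**
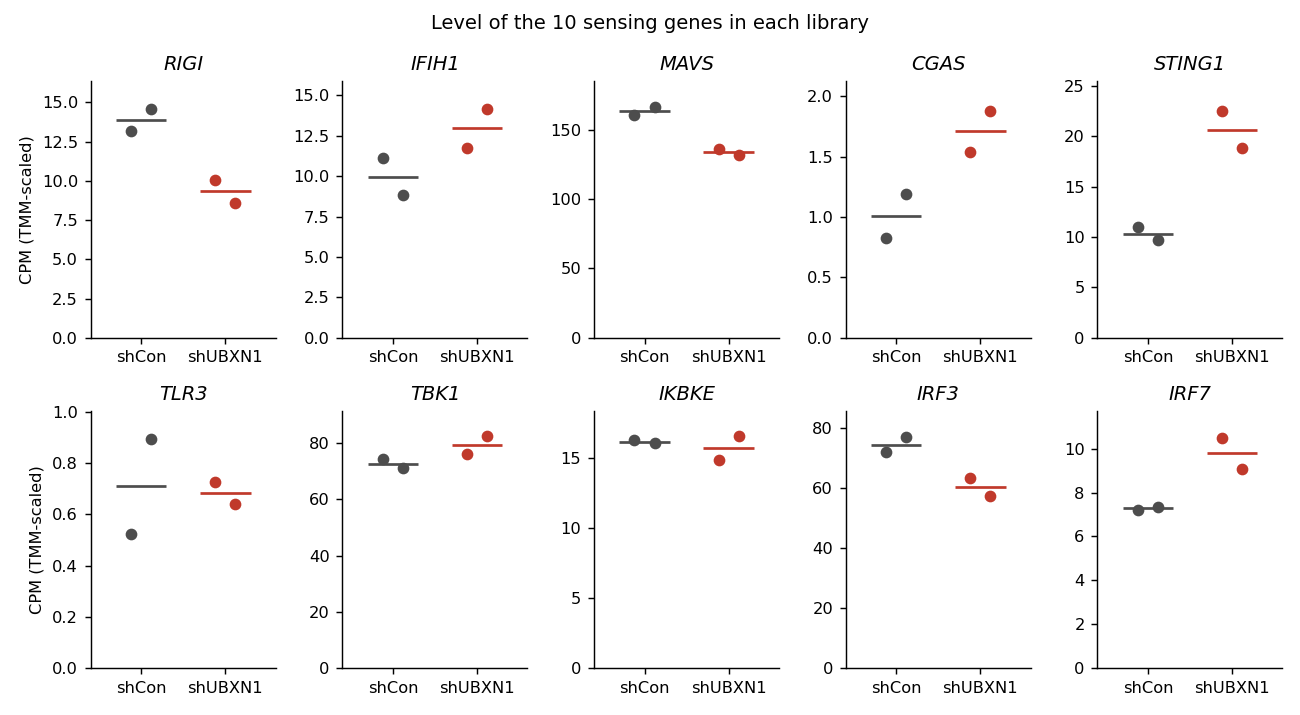
Level of each of the 10 sensing genes in each library, in TMM-scaled CPM (y axis, from 0), for shCon (grey) and shUBXN1 (red); points are the 2 libraries of a group and the line is their mean. The STING1 points lie at 11.0 and 9.66 CPM in shCon and at 22.5 and 18.8 CPM in shUBXN1, while the TLR3 and IKBKE points of the groups overlap.

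RIGI (ENSG00000107201, chromosome 9, 32455302-32526208 in GENCODE release 44), the sensor of short RNA with a 5′ triphosphate, was at 13.2 and 14.6 CPM in shCon and at 10.1 and 8.57 CPM in shUBXN1. Both knockdown libraries lay below both controls. It fell by 0.57 on the log2 scale (SE 0.138, 95% interval -0.87 to -0.28, edgeR adjusted p = 0.00265). A readthrough gene on the same strand (ENSG00000288684) covers 43.2% of the RIGI exon bases, so the deposited counts may be divided between these IDs. That gene was at 4.27 and 1.84 CPM in shCon and at 3.41 and 5.20 CPM in shUBXN1, which overlap. With the reads of both IDs summed, RIGI was at 17.5 and 16.4 CPM against 13.5 and 13.8 CPM, and the fall shrank to 0.31 (edgeR adjusted p = 0.0298). The direction of the RIGI change was thus the same with either count, but its size was not. Limma on log2(TPM + 1) did not call the fall of RIGI alone (adjusted p = 0.0575).

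IFIH1 (ENSG00000115267, chromosome 2, 162267074-162318684), which encodes MDA5, the sensor of long double-stranded RNA, was at 11.1 and 8.81 CPM in shCon and at 11.8 and 14.2 CPM in shUBXN1. The groups did not overlap, although the nearest libraries differed by less than the spread within each group. The rise was 0.37 (SE 0.152, 95% interval 0.05 to 0.70, edgeR adjusted p = 0.0485), just past the threshold. The call was lost without shCon replicate 2 (0.22, edgeR adjusted p = 0.369) and without shUBXN1 replicate 2 (0.23, edgeR adjusted p = 0.222), and DESeq2 (adjusted p = 0.138), limma-voom (adjusted p = 0.0527) and limma on log2(TPM + 1) (adjusted p = 0.0894) did not make it. TLR3 (ENSG00000164342, chromosome 4), the endosomal sensor, was at the bottom of the range with 14 and 21 counts in shCon and 18 and 15 in shUBXN1, or 0.525 and 0.894 CPM against 0.727 and 0.641 CPM. The TLR3 groups overlapped, and the 95% interval of the log2 fold change, -1.10 to 1.02, was too wide to show any change of less than about 2-fold at this depth (edgeR adjusted p = 0.951).

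CGAS (ENSG00000164430, chromosome 6), the cytosolic DNA sensor, was also scarce, with 22 and 28 counts in shCon and 38 and 44 in shUBXN1. These are 0.827 and 1.19 CPM against 1.54 and 1.88 CPM, and both knockdown libraries lay above both controls. The fitted rise of 0.76 (SE 0.394, 95% interval -0.08 to 1.61) did not pass the test (edgeR adjusted p = 0.114), and no alternative fit called it. A permutation test on 2 against 2 libraries could not have given a p-value below 0.333 for any of these genes.

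The adaptors moved in opposite directions. MAVS (ENSG00000088888, chromosome 20, 3846799-3876123), on which RIG-I and MDA5 converge, was at 161 and 167 CPM in shCon and at 136 and 132 CPM in shUBXN1. The libraries of each group were close together and the groups were apart. MAVS fell by 0.29 (SE 0.0719, 95% interval -0.44 to -0.13, edgeR adjusted p = 0.00363). Without shCon replicate 2 the fall was 0.26 and was not called, and limma on log2(TPM + 1) did not call it either. STING1 (ENSG00000184584, chromosome 5, 139475533-139482935), the adaptor downstream of cGAS, was at 11.0 and 9.66 CPM in shCon and at 22.5 and 18.8 CPM in shUBXN1. The lowest knockdown library was well above the highest control, by more than the spread within either group. The rise was 2.0-fold (95% interval 1.65 to 2.42), or 1.0 on the log2 scale (SE 0.129, edgeR adjusted p = 1.48e-05). STING1 was called in all 14 alternative fits, with log2 fold changes between 0.86 and 1.12, and 87.3% of the genes tested had a lower log2 fold change. No other gene overlaps its exons in the annotation.

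The kinases differed little between the groups. TBK1 (ENSG00000183735, chromosome 12), the kinase shared by the MAVS, STING and TLR3 routes, was at 74.3 and 71.2 CPM in shCon and at 76.1 and 82.5 CPM in shUBXN1. The groups were apart, but the difference of 0.12 (SE 0.0762, 95% interval -0.04 to 0.29) was not called (edgeR adjusted p = 0.180). TBK1 was called as higher in 4 of 14 alternative fits, with total count scaling among them (0.21, edgeR adjusted p = 0.0186). Its relative IKBKE (ENSG00000263528, chromosome 1), the inducible IKKε, was at 16.3 and 16.1 CPM in shCon and at 14.9 and 16.6 CPM in shUBXN1. The shCon values of IKBKE lay within the shUBXN1 range, and the log2 difference was -0.04 (95% interval -0.29 to 0.21, edgeR adjusted p = 0.786).

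Of the transcription factors, IRF3 (ENSG00000126456, chromosome 19, 49659569-49665875), which is present in most cells before any stimulus, was at 72.0 and 76.9 CPM in shCon and at 63.2 and 57.4 CPM in shUBXN1. Both knockdown libraries were below both controls, and IRF3 fell by 0.30 (SE 0.0796, 95% interval -0.47 to -0.13, edgeR adjusted p = 0.00481). The fall was not called without shCon replicate 2, with total count scaling (fell by 0.22, edgeR adjusted p = 0.0524) or with limma on log2(TPM + 1). BCL2L12 lies antisense over 19.4% of the IRF3 exon bases, and whether the authors counted by strand is not given in the sources used here. IRF7 (ENSG00000185507, chromosome 11, 612553-615983), the interferon-inducible partner that amplifies the response, was at 7.22 and 7.36 CPM in shCon and at 10.5 and 9.09 CPM in shUBXN1. Both knockdown libraries were above both controls, with a rise of 0.43 (SE 0.154, 95% interval 0.10 to 0.76, edgeR adjusted p = 0.0289). IRF7 has the highest GC content of the 10 genes, 66.6% of its canonical transcript. When a trend of fold change with GC content was removed, its rise was 0.21 and was not called (edgeR adjusted p = 0.259). The call was also lost without either shCon library (edgeR adjusted p = 0.127 without replicate 1 and 0.0947 without replicate 2), without shUBXN1 replicate 1 (edgeR adjusted p = 0.139) and with DESeq2 (adjusted p = 0.115).

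**Figure D2:**
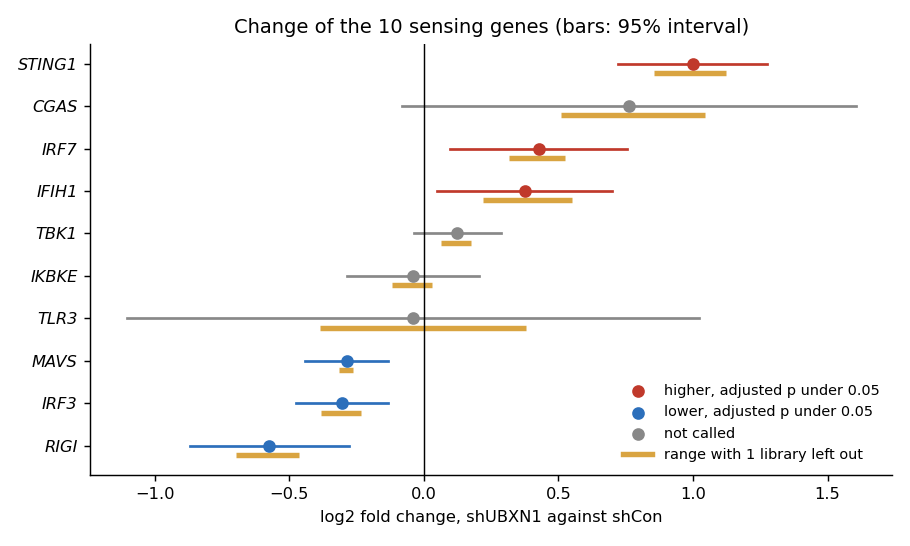
Log2 fold change of each sensing gene in shUBXN1 against shCon (x axis), ordered by size; points and thin bars are the edgeR estimate with its 95% interval, coloured by call, and the thick yellow bars span the estimates with 1 of the 4 libraries left out. STING1 stands at 1.0 with leave-one-out estimates of 0.86 to 1.12, and the TLR3 interval runs from -1.10 to 1.02.

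The groups did not overlap in CPM for 8 of the 10 genes, against 78.0% of all genes tested. Under a stricter rule of size, a fold change of 2 with an unadjusted p below 0.05, 17.9% of all genes tested were called, 11.8% as higher and 6.09% as lower, and 0 of the 10 sensing genes. By edgeR, 6 of the 10 had an unadjusted p below 0.05, and neither DESeq2 nor limma-voom placed any of the 10 past a fold change of 2. STING1 came closest to that limit.

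Levels were compared between genes in TPM, in which the deposited counts are divided by gene length and then scaled to the same library total. In shCon, IRF3 was the most abundant at 95.9 ± 2.45 TPM (SD, n = 2), ahead of TBK1 at 45.9 ± 2.36 TPM and MAVS at 28.0 ± 0.0870 TPM. STING1 at 10.8 ± 1.21 TPM and IKBKE at 10.03 ± 0.311 TPM overlapped, as did RIGI at 6.01 ± 0.298 TPM and IFIH1 at 5.60 ± 1.04 TPM, with IRF7 between these pairs at 7.12 ± 0.0537 TPM. CGAS at 0.631 ± 0.148 TPM and TLR3 at 0.236 ± 0.0819 TPM were the lowest. IRF3, TBK1 and MAVS were each above all 4 sensors.

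The order at the top and bottom was the same in shUBXN1, with IRF3 at 81.2 ± 9.82 TPM, TBK1 at 52.1 ± 0.244 TPM, CGAS at 1.11 ± 0.1002 TPM and TLR3 at 0.238 ± 0.0338 TPM. In between, STING1 at 22.6 ± 4.05 TPM overlapped MAVS at 23.9 ± 1.81 TPM rather than IKBKE at 10.2 ± 0.244 TPM. IRF7 at 9.997 ± 1.53 TPM overlapped IKBKE, and IFIH1 at 7.54 ± 0.602 TPM was above RIGI at 4.22 ± 0.705 TPM.

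Ratios within a library do not depend on the scaling between libraries. The ratio of RIGI to IFIH1 TPM was 0.916 and 1.28 in shCon and 0.663 and 0.467 in shUBXN1, so IFIH1 exceeded RIGI in both knockdown libraries, with RIGI counted without its readthrough gene. The ratio of IRF3 to IRF7 TPM was 13.2 and 13.8 in shCon and 7.95 and 8.32 in shUBXN1, with IRF3 the more abundant throughout. MAVS TPM was 2.39 and 2.81 times STING1 TPM in shCon and 0.990 and 1.15 times in shUBXN1, which placed the adaptors of the RNA and DNA routes at nearly the same level. The TBK1 to IKBKE ratio moved less, from 4.64 and 4.51 to 5.21 and 5.07. STING1 TPM was 22.2 and 13.6 times CGAS TPM in shCon and 24.5 and 16.7 times in shUBXN1, and those ranges overlapped. The ratios were computed as descriptions and were not tested.

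**Figure D3:**
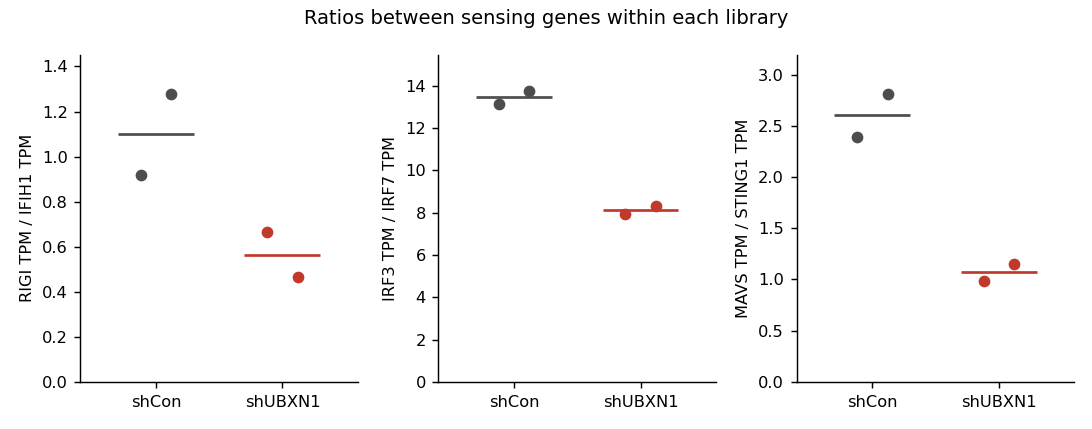
Ratio of TPM between genes of related role within each library (y axes, from 0), for shCon (grey) and shUBXN1 (red); points are libraries and lines are group means. The MAVS to STING1 ratio is 2.39 and 2.81 in shCon and 0.990 and 1.15 in shUBXN1, and the RIGI to IFIH1 and IRF3 to IRF7 ratios are also lower in both knockdown libraries.

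The rest of the pathway was read through 9 lists of known components, which together held 107 genes. Of the 86 with enough counts to test, 32 were higher and 27 lower, with a median log2 fold change of 0.12, against 28.0% higher and 28.2% lower among all genes tested. Of the 19 tested partners of the RNA sensors and MAVS, 6 were higher and 6 lower, with a median of 0.11, and both counts were close to those shares of all genes. DHX58, which encodes LGP2, the third RIG-I-like receptor, was at 3.08 and 2.77 CPM in shCon and at 6.38 and 7.22 CPM in shUBXN1, a rise of 1.22 (edgeR adjusted p = 2.22e-04). DHX58 and IFIH1 were thus higher where RIGI was lower. CYLD, a deubiquitinase that restrains RIG-I, rose by 1.10 (edgeR adjusted p = 5.55e-08), and MEX3C, a ligase for RIG-I, rose by 0.66 (edgeR adjusted p = 1.08e-05). TOMM70, the mitochondrial import receptor that docks MAVS signaling partners, fell by 0.63 (edgeR adjusted p = 6.03e-06). TRIM25, another RIG-I ligase, was at 151 and 152 CPM against 163 and 177 CPM and was not called (0.17, edgeR adjusted p = 0.0699).

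The scaffolds that bind TBK1 and IKKε were higher in 4 of 6 cases, against 28.0% of all genes tested, with a median of 0.47. The other 2 were not called, like the kinases themselves. TBKBP1 rose by 1.23 (edgeR adjusted p = 2.41e-06), OPTN by 1.07 (edgeR adjusted p = 3.88e-08) and TANK by 0.49 (edgeR adjusted p = 1.58e-04). OPTN is also an autophagy receptor. Those not called were AZI2, at 0.15 on the log2 scale, and TICAM1, the adaptor of TLR3, at -0.17.

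Of the 20 tested partners of cGAS and STING, 1 was higher, 9 were lower and 10 were not called, with a median of -0.15, against 28.0% higher and 28.2% lower among all genes tested. LRRC8A, a subunit of the anion channel that can carry cGAMP, fell by 0.78 (edgeR adjusted p = 8.54e-07). RNASEH2C, a subunit of the RNase that removes ribonucleotides from DNA, fell by 0.82 (edgeR adjusted p = 5.43e-06), although KAT5 lies antisense over 28.9% of its exon bases. SURF4, which returns STING from the Golgi to the endoplasmic reticulum, fell by 0.63 (edgeR adjusted p = 1.04e-05). The gene that was higher was ABCC1, an exporter of cGAMP (0.20, edgeR adjusted p = 0.0383), named here after its value was seen. Its call was lost without shCon replicate 1, without shCon replicate 2, without shUBXN1 replicate 2 and with the GC trend removed, and the count of higher partners ran from 0 to 4 over the alternatives, with 4 under total count scaling and 3 without shUBXN1 replicate 1.

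Around TLR3, the endosomal receptor list gave 2 of 7 higher and 4 lower, against 28.0% higher and 28.2% lower among all genes tested. UNC93B1, which carries these receptors to endosomes, rose by 0.76 (edgeR adjusted p = 1.06e-06). IRAK1 and MYD88, which serve the other endosomal receptors and not TLR3, fell by 0.73 (edgeR adjusted p = 4.37e-06) and 0.57 (edgeR adjusted p = 4.46e-05). The second gene counted as higher, TLR9, had 0 counts in both shCon libraries and 40 and 13 counts in shUBXN1, and 99.7% of its exon bases are shared with another gene ID, so its reads are uncertain. Of the 9 enzymes that act on double-stranded RNA, 4 were higher and 4 lower, against the same shares of all genes tested. OAS2 and OAS1, which make the activator of RNase L, rose by 1.19 (edgeR adjusted p = 1.15e-07) and 0.75 (edgeR adjusted p = 9.49e-07), whereas OAS3, which makes the same activator and is named after its value was seen, fell by 0.31 (edgeR adjusted p = 0.00304). Their relative OASL, known to enhance RIG-I, fell by 0.88 (edgeR adjusted p = 5.11e-05).

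**Figure D4:**
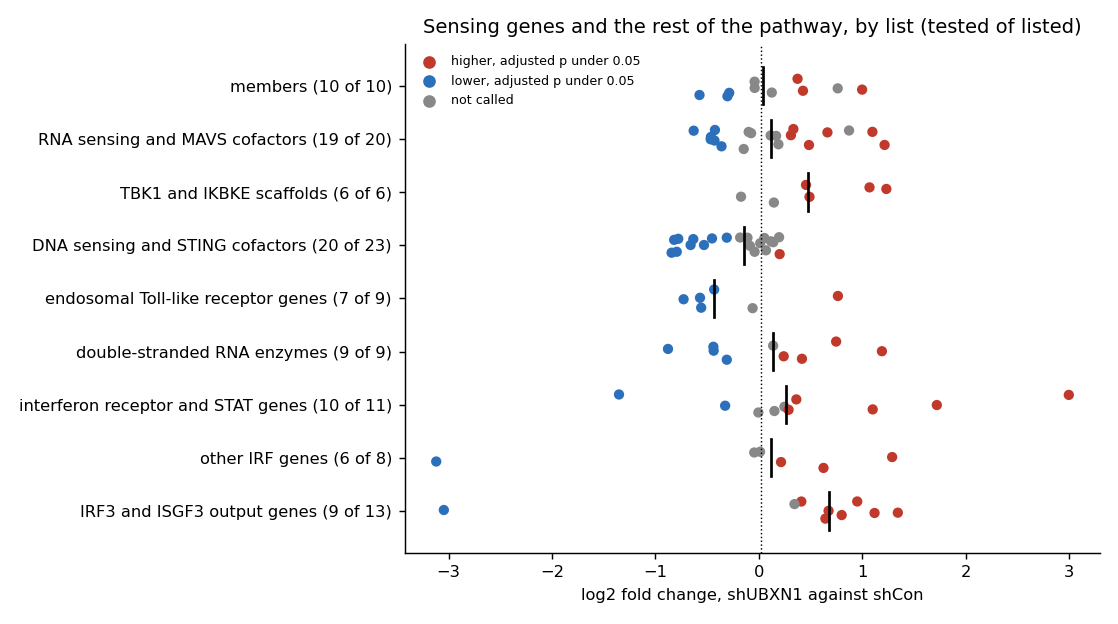
Log2 fold change in shUBXN1 against shCon (x axis) of the sensing genes (top row, members) and of 8 further lists, 1 point per tested gene, coloured by call; the upright bar is the list's median, the dotted line the median of all genes tested, and the brackets give genes tested of genes listed. TLR9, at 0 counts in shCon, is left out of the points but counted. The 4 called scaffolds of TBK1 and IKBKE lie right of 0, and 9 of the 10 called cofactors of DNA sensing lie left of it.

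The interferon genes themselves, the outputs of IRF3 and IRF7, were barely detected, and 0 of 8 had enough counts for the edgeR test. IFNB1 had 1 count in all, in an shCon library, and IFNL1 had 0, which allows a level of up to 0.1125 to 0.128 CPM in a library (3 counts, counting error only). In the receptor and STAT list, 5 of 10 tested genes were higher and 2 lower, against 28.0% higher and 28.2% lower among all genes tested. STAT2 rose by 1.10 (edgeR adjusted p = 1.58e-07) and IRF9 by 1.72 (edgeR adjusted p = 1.51e-06), both parts of the complex that answers to interferon, although another gene ID covers 23.9% of the IRF9 exon bases on the same strand. USP18, a brake on the interferon receptor, fell by 1.35 (edgeR adjusted p = 4.99e-04). SOCS1, another brake on interferon signaling that was named after its value was seen, was called higher (edgeR adjusted p = 0.00425). It was scarce, with 7 and 0 counts in shCon and 37 and 18 in shUBXN1. USP18 and SOCS1 thus moved in opposite directions.

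Among the other IRF genes, 3 of 6 tested were higher and 1 lower, against 28.0% higher and 28.2% lower among all genes tested. IRF5 rose by 1.29 (edgeR adjusted p = 2.76e-06) and IRF1 by 0.62 (edgeR adjusted p = 6.29e-05), in the direction of IRF7.

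Genes that IRF3 and the STAT complex are known to induce were higher in 7 of 9 tested cases and lower in 1, with a median of 0.67, against 28.0% higher among all genes tested. A further 4 of the 13 listed (RSAD2, IFI44L, CXCL10 and CCL5) were too low to test. ISG15, a ubiquitin-like modifier, was at 17.4 and 18.2 CPM in shCon and at 30.7 and 31.2 CPM in shUBXN1, a rise of 0.80 (edgeR adjusted p = 6.83e-06). The antiviral GTPase MX1 rose by 1.34 (edgeR adjusted p = 3.38e-05) and IFIT2, which binds foreign RNA, by 0.95 (edgeR adjusted p = 1.68e-04). The exception within this list was IFI44, named after its value was seen, with 15 and 21 counts in shCon and 1 and 3 in shUBXN1. The list does not hold all interferon-inducible genes. In the same libraries RIGI, itself interferon-inducible, was lower. Of such genes in the other lists, USP18, OASL and OAS3 were also called lower. So were DDX60, ADAR, EIF2AK2 and ZC3HAV1, named after their values were seen. Others were called higher, with OAS1, OAS2 and DHX58 among them.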

How the data were processed

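RNA was measured in 2 shCon and 2 shUBXN1 libraries of MHCC97H cells. The authors deposited expected counts per gene, given to 2 decimals and not normalized, beside a gene length. The submitters' processing notes name HISAT2 2.0.4, StringTie 1.3.0 and GRCh37, whereas the paper's methods name GRCh38. Of the gene IDs, 99.7% were in GENCODE release 44 (GRCh38), which supplied symbols and positions. The deposited table holds no coordinates. The library kit is named differently in the methods (TruSeq) and the labels (VAHTS).

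Expected counts were rounded and tested with edgeR 4.0.16 (R 4.3.3) by glmQLFit and glmQLFTest with TMM factors and filterByExpr, two-sided, over 16863 genes. CPM and TPM were computed from the unrounded deposited counts. The scripts were tested on simulated data. Alternatives were limma 3.58.1, DESeq2 1.42.0, other scalings and filters, a replicate block, and leaving out each library. The GC alternative and the summing of RIGI with its readthrough gene were added after seeing the data. The study tested TPM with limma, but the files hold counts. Residual degrees of freedom were 2 per gene.

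The 10 genes and the pathway lists were chosen with earlier results of these data known. Named were all 10, UBXN1, DHX58, TRIM25, IFNB1 and IFNL1, the 3 called genes of smallest p in each list, and the most abundant of each marker list. Some genes of these lists are not reported here.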

Additional observations from a re-analysis of the deposited data

How the results depend on the processing

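Among 141 combinations of a sensing gene with an alternative, 121 left the call as it was, 16 lost it, 4 gained it and 0 reversed it. STING1 held in all of its 14. The rule of a fold change of 2 with an unadjusted p below 0.05 gave 1997 higher and 1027 lower genes, 12 and 3 in the pathway lists, and 0 and 0 among the sensing genes. Limma on log2(TPM + 1) called 0 sensing genes lower, with RIGI at an adjusted p of 0.0575, and DESeq2 called 1 higher; the cause was not tested. With 1 library left out, which assumes that the lone sample varies like the other group, 1 to 3 sensing genes were higher and 1 to 3 lower. The lowest counts, 1 and 1, came without shCon replicate 2, when IFIH1, MAVS, IRF3 and IRF7 lost their calls. With 1 library left out, all genes gave 3845 to 4680 higher and 3758 to 4977 lower, the pathway lists 25 to 34 higher and 24 to 28 lower, and UBXN1 log2 fold changes of -2.14 to -1.93.

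The labels give no shared culture or day for a replicate number, and with 2 pairs the data cannot settle a pairing (correlation of same-numbered deviations 0.0635 over all genes tested and 0.138 over those of mean log2 CPM above 2). With the replicate number as a block, 3 sensing genes were higher and 3 lower, all genes gave 5000 and 5023, the pathway lists 34 and 28, and UBXN1 stood at -2.03. Total count scaling moved the median of all genes from 0.02 to 0.10 and the share of calls that were higher from 49.9% to 57.3%. TLR3 and IKBKE, which were not called, changed sign under it and under other alternatives. TLR3 kept its sign in 8 of 14 alternatives and IKBKE in 11 of 14. Depth limited TLR3 and CGAS most, and the interferon genes could not be tested.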
